A study of Mus musculus with 272 samples.

Results

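The 4 nuclear factor I genes of the mouse, *Nfia*, *Nfib*, *Nfic* and *Nfix*, were taken by gene name from the GENCODE M21 annotation of mm10, as 4 of its 21938 protein-coding genes and of its 55413 genes in all. Their chromatin was read from the 8 peak lists of the series, which hold ATAC-seq, H3K4me3, H3K27ac and H3K27me3 from skeletal muscle stem cells (MuSCs) with 2 replicates each. The rest of the 272 samples of the series, mainly sequencing of CRISPR-Cas9 edited sites with their controls and the input libraries of the ChIP-seq, did not enter here. The MuSCs were sorted by GFP from hindlimb muscle of Pax7Cas9 mice, in which Cre expressed from the *Pax7* locus switches on a Cas9 knock-in. The labels of the 8 chromatin libraries give skeletal muscle as the tissue, with no age, strain, sex or treatment, and do not say whether the replicates came from separate animals. There is 1 condition, so no comparison between groups exists, and every value is given for both replicates as a description with no test.

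The NFI proteins are transcription factors that bind DNA as homodimers or heterodimers through a conserved amino-terminal domain, while their carboxy-terminal parts activate or repress transcription. The preferred site is a palindrome with the letters TTGGC, a spacer and GCCAA, and a single TTGGC box is bound more weakly. In muscle, *Nfix* is known for the switch from embryonic to foetal myogenesis and for its part in regeneration, *Nfia* and *Nfib* for the making of glia in the nervous system, and *Nfic* for the growth of tooth roots.

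ATAC-seq marks open chromatin, H3K4me3 active or poised promoters, H3K27ac active promoters and enhancers, and H3K27me3 chromatin repressed by Polycomb. The strength of a peak is given as its fold, the enrichment that MACS2 computed at the summit over its estimate of the background. A promoter is the stretch of 3 kb either side of a transcription start site (TSS), and a feature was called at a TSS when a peak touched that stretch in both replicates. Unless said otherwise, the fold at a TSS is that of the highest peak in that stretch, which need not cover the TSS. The lists hold no numbers of reads, so the depth of each library is unknown. They held 140937 and 94574 ATAC-seq peaks, 20519 and 18006 H3K4me3 peaks, 24217 and 18589 H3K27ac peaks, and 6080 and 10485 H3K27me3 peaks in replicates 1 and 2. The first ATAC-seq list stood apart, because 3734 of its 6483 peaks with a fold of 20 or more (57.6%) overlapped no peak of replicate 2, against 0 of 1980 the other way round. Of the 13 markers of MuSCs, 12 had promoter H3K27ac in both replicates, against 3 of 25 markers of fibro-adipogenic cells, endothelial cells, blood cells and myofibres. The same markers of other cells had promoter H3K4me3 in 7 of 25 and ATAC-seq in 17 of 25, against 13 of 13 of MuSCs for both. Over all protein-coding genes the shares were 46.6% for H3K27ac, 60.8% for H3K4me3 and 67.8% for ATAC-seq. The ATAC-seq count of the markers of other cells was thus near the share of all genes.

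An exact NFI palindrome was present in 1 of the 205 ATAC-seq peaks around the 4 genes that were found in both replicates, and that peak lay in an intron of *Nfia*. It is printed with the surrounding bases, followed by the only peak around the 4 genes that held the palindrome with 1 of its 10 fixed letters changed, in an intron of *Nfix*. Both are on the plus strand of mm10, and capitals mark the 5 letters on each side of the spacer.
Nfia chr4:97869251-97869280: ttcccttcTTGGCcagagGCCAAgggcacg
Nfix chr8:84744178-84744207: gaatgcagTTGGCagctgGCCAGtgggcca
The *Nfia* site, at chr4:97869259-97869273, lay 10 bp from the summit of an ATAC-seq peak with folds of 5.17 and 4.5, and 10853 bp upstream of the TSS of transcript *Nfia*-207. That peak was itself inside an H3K27ac peak present in both replicates. The *Nfix* site, at chr8:84744186-84744200, lay in an ATAC-seq peak with folds of 5.93 and 7.16, with no H3K27ac over it in both replicates. With at most 1 letter changed, the palindrome was in 2 of the 205 peaks (0.976%). This is near its share in the whole list, 774 of 88575 peaks found in both replicates (0.874%).

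One open region of each gene is also shown, an ATAC-seq peak of replicate 1 (at most 300 bases around its summit). It overlaps the strongest H3K27ac peak with such a peak that was away from all promoters and free of exons. Capitals mark every TTGGC box (TTGGC or GCCAA), AP-1 site (TGACTCA or TGAGTCA) and E-box (CAGCTG) that was found on either strand.
Nfia chr4:97751766-97752017, plus strand: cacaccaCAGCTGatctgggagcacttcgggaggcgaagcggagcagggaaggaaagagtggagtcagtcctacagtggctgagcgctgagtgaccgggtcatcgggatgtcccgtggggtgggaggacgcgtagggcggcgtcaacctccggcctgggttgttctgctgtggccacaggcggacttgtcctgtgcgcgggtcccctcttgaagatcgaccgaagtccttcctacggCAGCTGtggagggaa
Nfib chr4:82513065-82513364, plus strand: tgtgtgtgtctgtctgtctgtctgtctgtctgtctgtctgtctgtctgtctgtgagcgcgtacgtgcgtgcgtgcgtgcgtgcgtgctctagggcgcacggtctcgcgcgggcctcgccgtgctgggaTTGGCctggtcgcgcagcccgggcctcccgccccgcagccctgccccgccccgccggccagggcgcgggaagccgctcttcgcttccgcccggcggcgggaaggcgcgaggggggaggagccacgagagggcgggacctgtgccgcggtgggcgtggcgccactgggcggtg
Nfic chr10:81421874-81422119, plus strand: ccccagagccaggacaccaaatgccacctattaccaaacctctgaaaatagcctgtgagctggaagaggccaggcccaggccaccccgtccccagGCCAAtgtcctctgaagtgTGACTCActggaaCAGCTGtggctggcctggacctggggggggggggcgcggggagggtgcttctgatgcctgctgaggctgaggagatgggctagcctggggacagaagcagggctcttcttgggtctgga
Nfix chr8:84766460-84766722, plus strand: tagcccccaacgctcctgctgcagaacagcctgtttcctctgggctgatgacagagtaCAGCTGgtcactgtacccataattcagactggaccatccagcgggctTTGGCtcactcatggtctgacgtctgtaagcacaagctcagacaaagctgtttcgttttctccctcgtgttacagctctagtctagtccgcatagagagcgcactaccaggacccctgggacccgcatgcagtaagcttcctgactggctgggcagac
The *Nfia* region, which lies upstream of the annotated gene in an intron of *E130114P18Rik*, held 2 E-boxes and no TTGGC box. The *Nfib* region held 1 TTGGC box, and the *Nfic* region held 1 TTGGC box, 1 AP-1 site and 1 E-box. The H3K27ac peak at the *Nfic* region ended at chr10:81421975 in replicate 1 and 81421904 in replicate 2, before the AP-1 site and the E-box. In replicate 2 it also ended before the TTGGC box. The *Nfix* region held 1 TTGGC box and 1 E-box. The last 3 lie in introns of the genes themselves.

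*Nfia* spans chr4:97772734-98118874 on the plus strand (346 kb, 8 TSSs) and *Nfib* chr4:82290173-82705750 on the minus strand (416 kb, 8 TSSs). *Nfic* spans chr10:81396186-81455635 on the minus strand (59.5 kb, 7 TSSs) and *Nfix* chr8:84699876-84800344 on the minus strand (100 kb, 8 TSSs). The 31 TSSs fell into 18 groups when starts within 500 bp of the next were joined. TSSs of 1 gene share peaks, so the counts are not of independent promoters.

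All 4 genes had a promoter with the full active pattern, and none had H3K27me3 at a TSS in both replicates. Of all protein-coding genes, 46.6% had promoter H3K27ac and 4.81% promoter H3K27me3 in both replicates. The share of genes with the full pattern was not computed. ATAC-seq was called at 29 of the 31 TSSs, against 62% of the 93513 TSSs of protein-coding genes. H3K4me3 was called at 23 of 31 (53.2% of all TSSs) and H3K27ac at 23 of 31 (42.9%). The same 23 TSSs carried all 3 features, a pattern found at 41.7% of all TSSs. H3K27me3 was called at 0 of 31, against 2.91%. ATAC-seq without any of the 3 marks was found at 6 of the 31 TSSs, against 8.8% of all TSSs, and 2 TSSs had none of the 4 features.

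**Figure D1:**
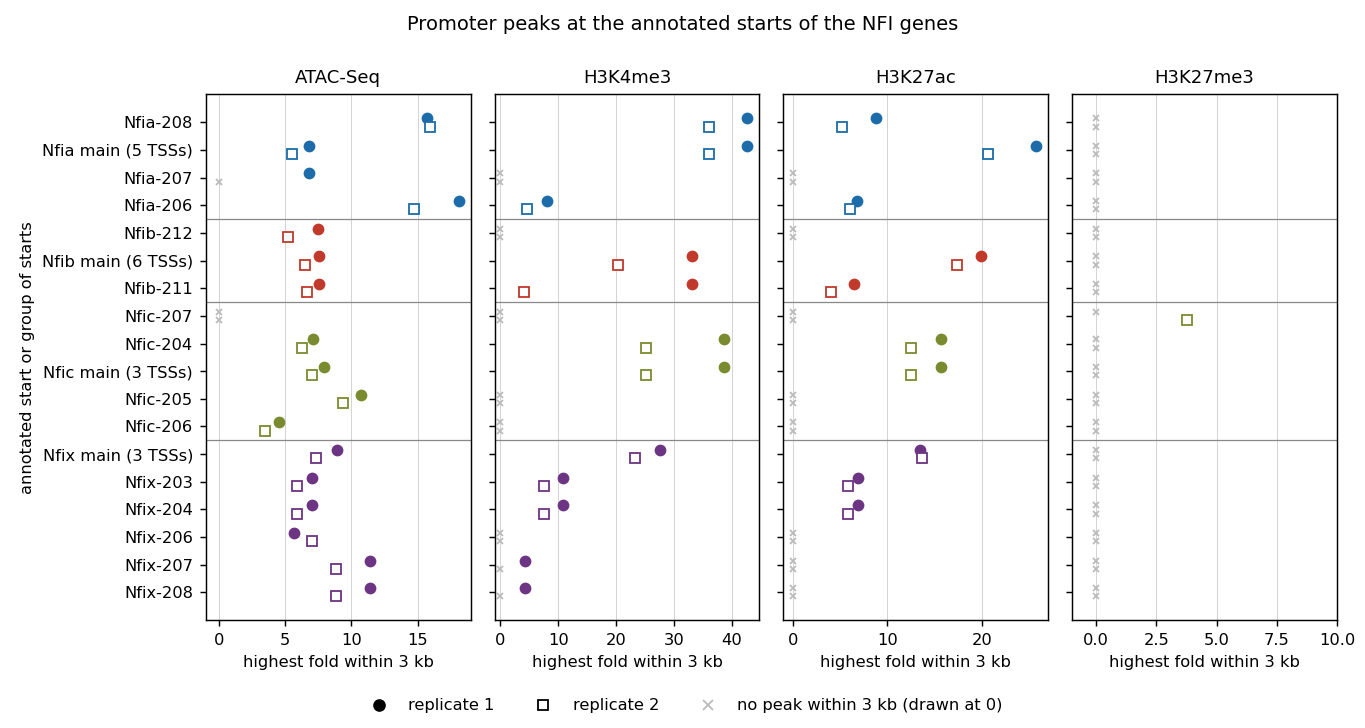
Highest fold of the peaks within 3 kb of each annotated start or group of starts (rows, in the order of transcription within each gene) for the 4 features (columns), with filled circles for replicate 1, open squares for replicate 2 and crosses where no peak was listed. The starts without H3K4me3 and H3K27ac include the most upstream start of *Nfib* and *Nfic* and the downstream starts of *Nfic* and *Nfix*.

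*Nfix*, the member best known in muscle, had its strongest promoter at its most upstream starts. This group of 3 TSSs (chr8:84800024-84800344) had ATAC-seq folds of 8.9 and 7.35, H3K4me3 folds of 27.6 and 23.2, and H3K27ac folds of 13.4 and 13.6 in replicates 1 and 2. A weaker promoter lay inside the gene at *Nfix*-203 and *Nfix*-204 (chr8:84774369 and 84773396), with ATAC-seq folds of 7.05 and 5.87, H3K4me3 folds of 10.8 and 7.62 and H3K27ac folds of 6.9 and 5.88. These internal starts therefore carried the same features as the main ones with lower folds of all of them in both replicates. The remaining 3 starts, near the 3′ end of the gene, had ATAC-seq within 3 kb without marks called, but no ATAC-seq peak covered them. *Nfix*-206 (chr8:84714068) had ATAC-seq folds of 5.68 and 7.04, in peaks 1333 and 1289 bp away. *Nfix*-207 and *Nfix*-208 (chr8:84708218 and 84707716) had ATAC-seq folds of 11.4 and 8.82, above those of the main promoter, and an H3K4me3 peak of fold 4.31 in replicate 1 only. The nearest ATAC-seq peaks lay 1041 and 1021 bp from *Nfix*-207 and 1543 and 1523 bp from *Nfix*-208.

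*Nfia* had the strongest H3K4me3 and H3K27ac of the 4 promoters. At its main group of 5 TSSs (chr4:97777608-97777834) the H3K4me3 folds were 42.6 and 36.1, which rank 723 and 254 among 21938 protein-coding genes, and the H3K27ac folds were 25.7 and 20.6. The ATAC-seq folds there were 6.79 and 5.53. A start further upstream, *Nfia*-208 (chr4:97772734), was more open, at 15.7 and 15.9, but its highest H3K27ac folds were 8.81 and 5.15. The main promoter is shared with *E130114P18Rik*, a protein-coding gene on the other strand whose TSS lies 214 bp away, so these peaks cannot be assigned to 1 of the 2 genes. Inside *Nfia*, the annotated start *Nfia*-206 (chr4:97911033) had ATAC-seq folds of 18.1 and 14.7, H3K4me3 folds of 8.04 and 4.61 and H3K27ac folds of 6.76 and 6.07. *Nfia*-207 (chr4:97880119) had 1 ATAC-seq peak, of fold 6.81, in replicate 1 and none in replicate 2. RefSeq places a further start of *Nfia* at chr4:97581943, 190791 bp upstream of the GENCODE gene and so outside the window. It was looked at after the other values were seen, and had ATAC-seq folds of 8 and 5.63, H3K4me3 folds of 10.6 and 6.5 and H3K27ac folds of 8.65 and 5.49.

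*Nfib* combined very wide H3K4me3 with ATAC-seq peaks of low fold at its main starts, as did *Nfia*. Its main group of 6 TSSs (chr4:82505308-82505779) had ATAC-seq folds of 7.53 and 6.47, H3K4me3 folds of 33 and 20.3 and H3K27ac folds of 19.9 and 17.3. Its highest promoter ATAC-seq fold, 7.57 and 6.64, stood at percentiles 14.7 and 12.8 of the genes with a promoter peak, whose medians were 13.3 and 12.2. By width, its widest promoter ATAC-seq peak, of 644 and 889 bp, stood at percentiles 74.7 and 88.8. *Nfib*-211 (chr4:82499316), inside the gene, had H3K27ac folds of 6.51 and 4.05. Its H3K4me3 fold of 33 in replicate 1 came from the wide peak of the main promoter, and was 4.15 in replicate 2, where that peak ended sooner. *Nfib*-212 (chr4:82705750), the start farthest upstream, had ATAC-seq folds of 7.49 and 5.24, in peaks 2684 and 2633 bp away, and no mark.

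*Nfic* had its active promoter in the middle of its annotated span. The main group of 3 TSSs (chr10:81427114-81427187) had ATAC-seq folds of 7.93 and 7.03, and the H3K4me3 peak over these TSSs had folds of 24.6 and 19.2. The highest peaks within 3 kb of them, with H3K4me3 folds of 38.6 and 25.2 and H3K27ac folds of 15.7 and 12.5, covered the neighbouring start *Nfic*-204 (chr10:81431005), whose ATAC-seq folds were 7.1 and 6.3. Downstream, *Nfic*-205 (chr10:81407641) had ATAC-seq folds of 10.7 and 9.34 within 3 kb and no mark. Those peaks, at chr10:81408838-81409103 and chr10:81408841-81409228, did not cover the start. The replicate 1 peak that covered it had a fold of 4.08, and the nearest peak of replicate 2 lay 25 bp away. *Nfic*-206 (chr10:81400554) had folds of 4.54 and 3.45 within 3 kb, with the nearest peaks 909 and 1254 bp away, and no mark either. *Nfic*-207 (chr10:81455635), the most upstream start, had no ATAC-seq, H3K4me3 or H3K27ac peak in either replicate.

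*Nfic*-207 was also the only one of the 31 TSSs with H3K27me3 in a single replicate. Replicate 2 listed 4 H3K27me3 peaks within 3 kb of it, with a highest fold of 3.76, the nearest of them at 1708 bp. Replicate 1 listed none, since its nearest peak lay at 3062 bp, just outside the 3 kb. One H3K27me3 region in the intron was nevertheless found in both replicates, at chr10:81452362-81452573 (fold 4.59) in replicate 1 and chr10:81452413-81452781 (fold 3.76) in replicate 2. Its −log10 q was 2.74 and 1.51, so the call at this start turns on where the 3 kb ends. The only other H3K27me3 region found in both replicates around the 4 genes lay in the promoter of *Gipc3*, 57678 bp beyond the 3′-most *Nfic* start, with folds of 3.38 and 4.45. Around *Nfia* and *Nfix* neither replicate listed an H3K27me3 peak, the nearest being 510 and 113 kb from a TSS of each gene in the replicate with the closer peak. *Nfib* had 1 in replicate 2, of fold 3.27, at 44.4 kb.

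The H3K4me3 domains over *Nfia* and *Nfib* were among the widest in these cells. The widest promoter peak of *Nfib* was 16009 bp in replicate 1, the widest of all 21938 protein-coding genes, and 6422 bp in replicate 2, where it ranked 18. That of *Nfia* was 6962 and 6483 bp, ranking 46 and 16. The medians over genes with such a peak were 1631 and 1350 bp. The wide *Nfib* peak of replicate 1 (chr4:82497758-82513766) held 7 of its 8 TSSs and that of *Gm11266*, an antisense transcript, while the peak of replicate 2 (chr4:82502431-82508852) held 6. The 16-kb width thus rests on replicate 1, and replicate 2 listed 6 *Nfib* promoter peaks where replicate 1 listed 2. H3K27ac was wide as well, at 5987 and 3455 bp for *Nfib*, ranking 13 and 79, and at 5123 and 2431 bp for *Nfia*, ranking 25 and 410. *Nfic* (3572 and 2803 bp of H3K4me3) and *Nfix* (3141 and 2743 bp) stood between percentiles 92 and 94.8 of genes, and their H3K27ac peaks, between 1101 and 1720 bp, were closer to the medians of 1183 and 1011 bp.

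**Figure D2:**
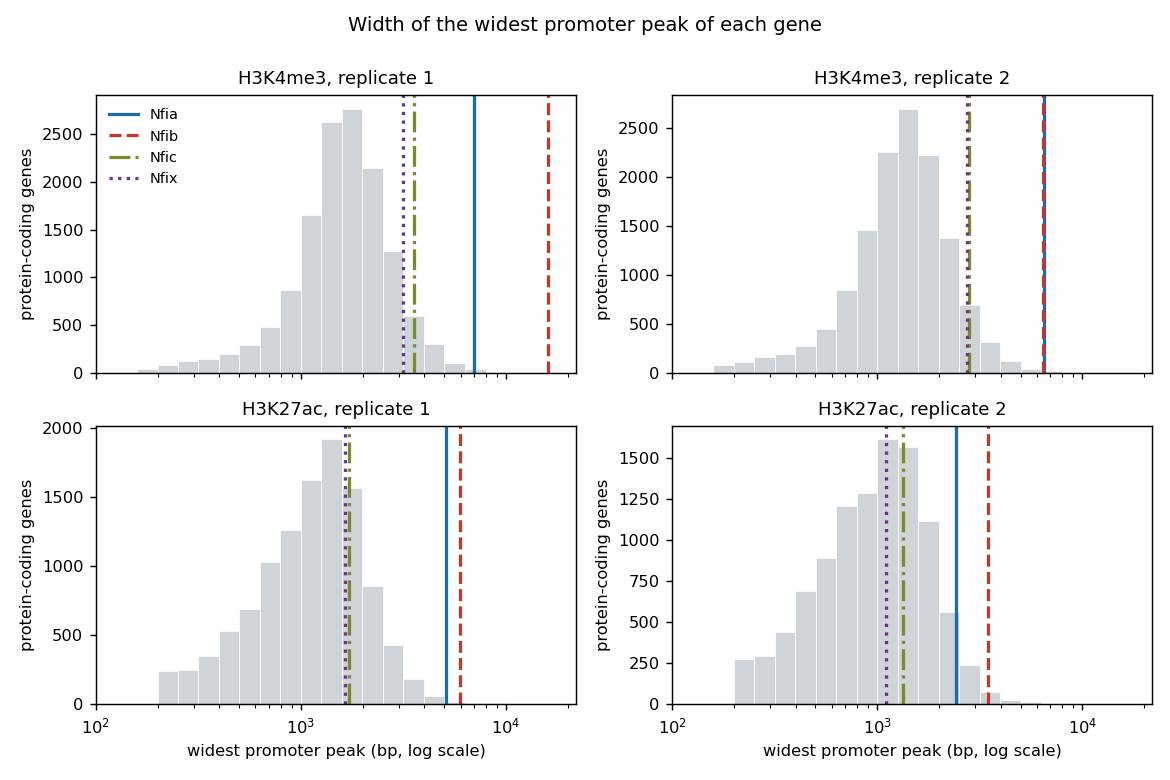
Number of protein-coding genes (y axis) by the width of their widest promoter peak (x axis, bp, log scale) for H3K4me3 and H3K27ac in each replicate, with lines at the 4 NFI genes. *Nfia* and *Nfib* lie in the upper tail of all 4 panels, at 6962 and 16009 bp for H3K4me3 in replicate 1.

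The windows of 100 kb either side of the genes held 275 and 228 ATAC-seq peaks, 78 and 69 H3K4me3 peaks, 139 and 92 H3K27ac peaks and 2 and 14 H3K27me3 peaks. Of these, 74.5% and 84.6%, 64.1% and 98.6%, 51.8% and 88%, and 100% and 14.3% overlapped a peak of the other replicate. In the whole lists the ATAC-seq shares were 62.9% and 84.7%, those of H3K4me3 79% and 98.7%, those of H3K27ac 64.6% and 91%, and those of H3K27me3 68.3% and 34.8%. For H3K4me3 and H3K27ac in replicate 1 the share was thus lower around the NFI genes than in the whole list.

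*Nfia* stood high in the number of H3K27ac peaks, with 49 and 29 in its window, which rank 5 and 13 of the 21938 genes. Per 100 kb of window it had 8.97 and 5.31, against medians of 1.44 and 1.21, and ranked 380 and 1464. *Nfix* had 42 and 28 H3K27ac peaks, ranking 6 and 15, and 14 and 9.32 per 100 kb, ranking 13 and 114. *Nfib* had 24 and 15, and *Nfic* 24 and 20. The windows differ in their neighbours. The *Nfix* window holds TSSs of 13 other protein-coding genes, 11 of them with H3K4me3 in both replicates (among them *Cacna1a*, *Ier2*, *Nacc1*, *Trmt1*, *Lyl1*, *Gadd45gip1*, *Calr*, *Farsa*, *Syce2* and *Gcdh*). The *Nfic* window holds 17, with H3K4me3 at 12 (*Pip5k1c*, *Cactin*, *Gipc3*, *Hmg20b*, *Mfsd12*, *Fzr1*, *Dohh*, *Gm48551*, *Celf5*, *Ncln*, *S1pr4* and *Gna11*). The *Nfia* window holds 1, *E130114P18Rik*, and the *Nfib* window none. Of the H3K27ac peaks, 40 of 49 and 21 of 29 around *Nfia* and 15 of 24 and 8 of 15 around *Nfib* lay away from every promoter, against 18 of 42 and 11 of 28 around *Nfix* and 6 of 24 and 2 of 20 around *Nfic*.

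**Figure D3:**
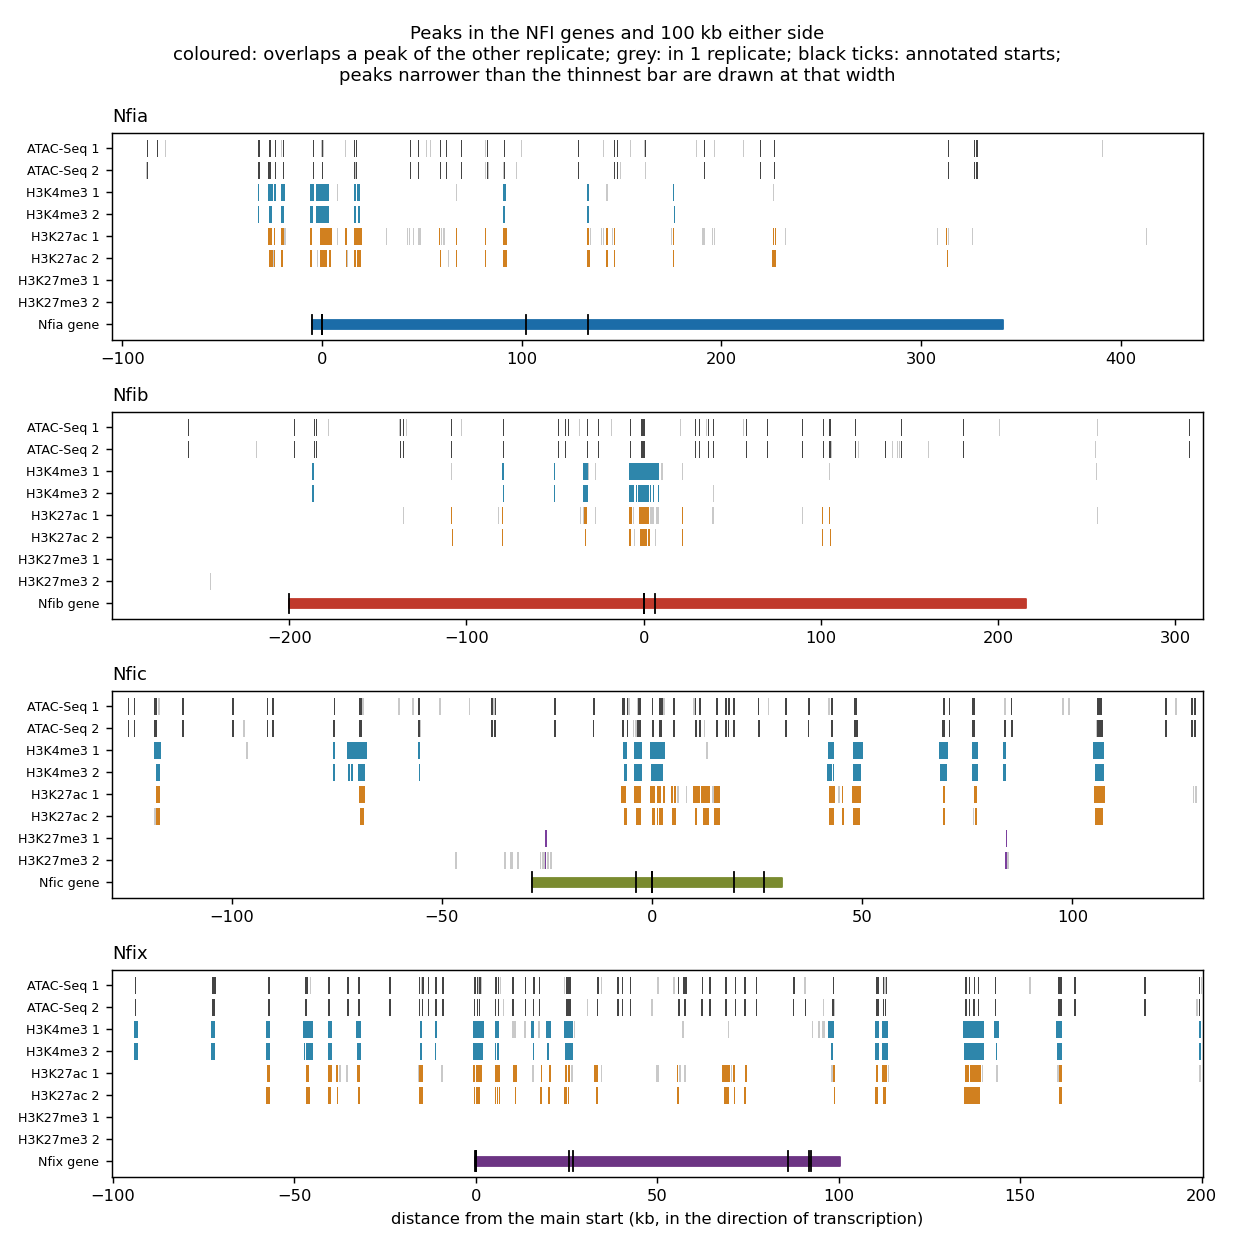
Peaks of the 8 lists in each NFI gene and 100 kb either side, by distance from the main start in kb along the direction of transcription, coloured where they overlap a peak of the other replicate and grey otherwise, with the gene as a bar and its starts as ticks. H3K27me3 is listed around *Nfic* and once in replicate 2 near *Nfib*, and the H3K27ac peaks of *Nfia* lie mostly inside the gene.

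Away from promoters, 33 H3K27ac peaks of replicate 1 overlapped a peak of replicate 2. *Nfia* had 16, of which 15 lay in its introns, *Nfix* 9, with 8 in introns, *Nfib* 6 and *Nfic* 2, all in introns. The windows differ in size, at 546 kb for *Nfia*, 300 kb for *Nfix*, 616 kb for *Nfib* and 259 kb for *Nfic*. Counted from the peaks of replicate 2, the numbers were 17, 11, 6 and 2 in the same order. An ATAC-seq peak found in both replicates overlapped 8 of the 16 at *Nfia*, 4 of 9 at *Nfix*, 5 of 6 at *Nfib* and 1 of 2 at *Nfic*. H3K4me3 of both replicates overlapped 4, 3, 2 and 0 of them in the same order. RefSeq places a further *Nfix* start at chr8:84780082. The *Nfix* peaks at chr8:84779489-84780029 and chr8:84782040-84782244 lie within 3 kb of it, so they are away from GENCODE promoters only.

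The 3 strongest at *Nfia* were as strong as many promoters, for which the median fold was 13.9 and 12. The first, at chr4:97750943-97753001 and 20687 bp upstream of *Nfia*-208, had H3K27ac folds of 25.3 and 20.6 and ATAC-seq folds of 13.7 and 14.5. The next, at chr4:97793763-97797164 in an intron 16589 bp downstream of the main start, had H3K27ac folds of 15.3 and 14.8 and ATAC-seq folds of 16.8 and 18.8. The third, at chr4:97868351-97870418, had H3K27ac folds of 18.4 and 12.1 and holds the NFI palindrome printed above. Each of the 3 also had H3K4me3 in both replicates. In replicate 2 the first reached the same H3K27ac fold as the *Nfia* promoter.

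At *Nfix* the strongest, chr8:84814549-84815678, lay 15063 bp upstream of the first start, with H3K27ac folds of 16.1 and 9.93 and ATAC-seq folds of 10.7 and 10.2. Its summit falls in the UTR exon of *Dand5*, which encodes an antagonist of Nodal signalling. It was followed by 2 intronic peaks, at chr8:84766493-84767467 (6.48 and 7.72) and chr8:84730176-84732345 (5.91 and 6.33). At *Nfib* the strongest, chr4:82512452-82513795 (11.6 and 10), lay 7823 bp upstream of the main start in an intron, at the edge of the 16-kb H3K4me3 peak, over an ATAC-seq peak of 18.8 and 17.4. The other 2 named at *Nfib*, chr4:82483365-82484249 (6.64 and 6.79) and chr4:82537447-82539446 (6.21 and 5.17), were weaker. Both peaks at *Nfic*, chr10:81422149-81422743 (5.75 and 4.78) and chr10:81421460-81421975 (7.28 and 4.78), lay side by side in an intron about 5 kb downstream of the main start.

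**Figure D4:**
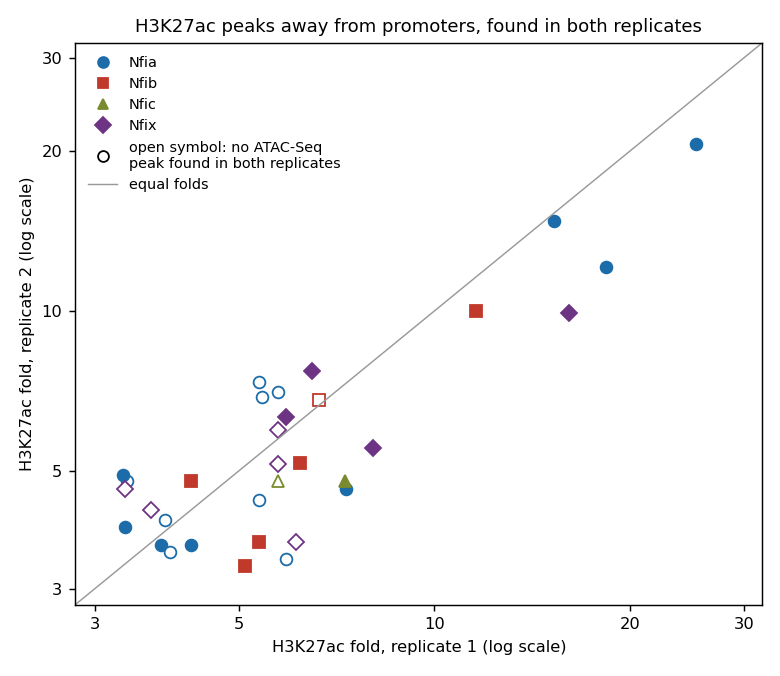
H3K27ac fold in replicate 1 (x axis) against replicate 2 (y axis), both on log scales, for the 33 peaks away from promoters found in both replicates, with filled symbols where an ATAC-seq peak found in both replicates overlapped. The 3 strongest of *Nfia* and the strongest of *Nfix* and *Nfib* stand above the rest.

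The highest ATAC-seq folds around the genes were partly in replicate 1 alone. The top peak of the *Nfia* window in replicate 1 was an intronic peak of 147 bp at chr4:97859520-97859666 with a fold of 68.3, which overlapped no peak of replicate 2. In replicate 2 the top peak was chr4:98004181-98004623, with a fold of 22 and of 21.8 in replicate 1. Likewise the top peak of the *Nfib* window in replicate 1 (chr4:82382621-82382735, 20.1) was absent from replicate 2, whose top peak was the intronic region at chr4:82512877-82513504 with 17.4. Of the 8 peaks of fold 20 or more around the 4 genes in replicate 1, 3 were in that replicate only, against 0 of 4 in replicate 2. The top ATAC-seq peaks of the other windows lay at promoters of neighbours, *Hmg20b* (22.4) and *Dohh* (20.2) around *Nfic*, and *Gcdh* (26.4 and 29.3) around *Nfix*. The same held for H3K4me3, whose highest folds were at *Cactin* (49.2 and 36.5) around *Nfic*, and at *Ier2* (44.8) and at *Nacc1* and *Trmt1* (42.9) around *Nfix*. H3K27ac was highest at *Fzr1* (24.9) and *Cactin* (21.1) around *Nfic* and at *Ier2* (22.2 and 21.1) around *Nfix*. In the *Nfib* window both marks were highest at its own main promoter. In the *Nfia* window that held for H3K4me3 and, in replicate 1, for H3K27ac, which in replicate 2 was highest at the region 20.7 kb upstream.

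Among the 205 ATAC-seq peaks around the 4 genes found in both replicates, the sites searched were set beside their shares in all such peaks. The palindrome was in 1 (0.488%), against 0.0282% of the 88575 such peaks of the whole list, and 1 peak is too few to compare. A TTGGC box, of which the palindrome holds a pair, was in 84 (41%) against 38.7%. The AP-1 site, the motif bound by Fos and Jun proteins such as *Junb*, was in 27 (13.2%) against 16.4%, and the E-box, the motif of myogenic factors such as MyoD, in 54 (26.3%) against 27.6%. The genes differed most in the AP-1 site, which was in 10 of 43 peaks around *Nfib* (23.3%), 7 of 49 around *Nfic* (14.3%), 6 of 42 around *Nfia* (14.3%) and 4 of 71 around *Nfix* (5.63%). In the whole list it was in 21.3% of peaks away from promoters and in 10.3% of those at promoters. Promoters made up 45 of the 71 peaks of *Nfix* and 15 of the 43 of *Nfib*. Within the peaks away from promoters the site was in 8 of 28 around *Nfib* (28.6%) and 1 of 26 around *Nfix* (3.85%), and within those at promoters in 2 of 15 (13.3%) and 3 of 45 (6.67%). Away from promoters the E-box went the other way, in 6 of 28 around *Nfib* (21.4%) and 12 of 26 around *Nfix* (46.2%). It was in 9 of 31 around *Nfia* (29%) and 4 of 14 around *Nfic* (28.6%). Over the 4 genes this made 31 of 99 (31.3%), near the 30.8% of such peaks in the whole list. A match of letters is not a bound site.

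Genes that the muscle literature places around *Nfix* were examined at their own promoters. All 10 had promoter ATAC-seq in both replicates (67.8% of protein-coding genes), 9 had H3K4me3 (60.8%), 7 had H3K27ac (46.6%) and 1 had H3K27me3 (4.81%). *Pax7* and *Junb*, which act upstream of *Nfix* in foetal muscle, both had all 3 active features. The *Pax7* promoter had H3K27ac folds of 15 and 14.7, and that of *Junb*, which lies 176 kb from the nearest *Nfix* start, 18.4 and 12.9. The partners *Sox6* (8.81 and 6.25), *Mef2a* (24.9 and 14.8) and *Prkcq* (16.1 and 8.09), a pair of transcription factors and a kinase, also had H3K27ac in both replicates.

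The 5 genes downstream, which encode products of differentiating or mature muscle or control it, were less uniform. *Eno3*, the muscle enolase, had H3K27ac folds of 19.7 and 15.4, and *Myh7*, the slow myosin heavy chain, 6.13 and 6.62 with no H3K4me3. *Ckm*, the muscle creatine kinase, had ATAC-seq (11.1 and 11.2) and H3K4me3 (11.7 and 9.31) without H3K27ac, and was the only one of the 10 with H3K27me3 in both replicates, at 6 and 3.74. That call was lost with protein-coding transcripts only and at a −log10 q of at least 5. *Eno3* had an H3K27me3 peak of 1.66 in replicate 1 only. *Nfatc4*, a calcineurin-dependent factor, had H3K4me3 (16 and 11.2) without H3K27ac and an H3K27me3 peak of 3.08 in replicate 2 only. *Mstn*, the inhibitor of muscle growth myostatin, had weak H3K4me3 (4.09 and 3.21) and H3K27ac of 4.6 in replicate 1 only. H3K27ac was called at 5 of 5 genes upstream or partnering and at 2 of 5 downstream, against 46.6% of protein-coding genes. These genes are few and were chosen with earlier results known, and *Pax7* drives the Cre through which the cells were sorted.

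**Figure D5:**
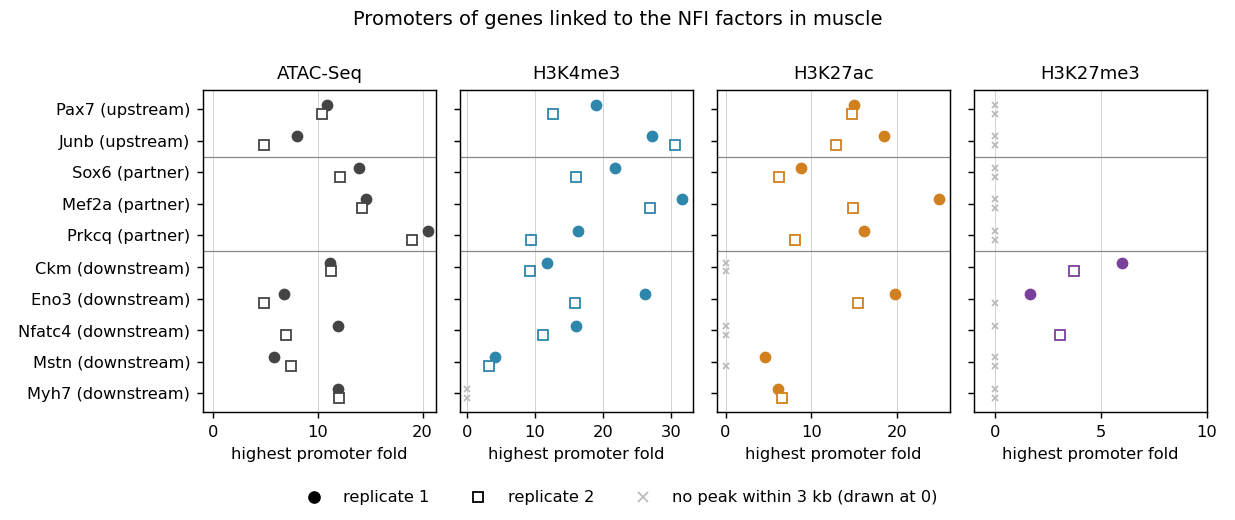
Highest promoter fold (x axis) of 10 genes linked to *Nfix* in muscle, by role, for the 4 features, with filled circles for replicate 1, open squares for replicate 2 and crosses where no peak was listed. The genes upstream and the partners have all 3 active features in both replicates, and *Ckm* is the only gene with H3K27me3 in both.

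The likeness between genes was measured as the Euclidean distance over 16 values, the highest promoter fold and the number of peaks in the gene and 100 kb either side in each of the 8 lists, each as log2 of 1 plus the value. On this scale *Nfia*, *Nfib* and *Nfix* were closer to each other, at distances of 2.19 to 2.56, than to *Nfic*, at 4.06 to 5.08. *Nfic* stood apart chiefly through H3K27me3, with 2 and 13 peaks in its window and a promoter fold of 3.76 in replicate 2. *Nfia* and *Nfix* had no such peaks, and *Nfib* had 1 in replicate 2. Of the 13 peaks of *Nfic* in replicate 2, 15.4% overlapped a peak of replicate 1. Distances without H3K27me3 were not computed, so the grouping is not shown to hold for the other features. By number of H3K27ac peaks, for example, *Nfib* (24 and 15) was nearer to *Nfic* (24 and 20) than to *Nfia* (49 and 29) or *Nfix* (42 and 28). The median distance to all protein-coding genes was between 7.96 and 9.04. Other genes were closer still. They were *Casc3* (1.06), *Cuedc1* (1.18) and *Ehbp1l1* (1.26) for *Nfia*, and *Tmem88b* (1.1), *Nsd1* (1.25) and *Dvl1* (1.26) for *Nfib*. For *Nfic* they were *Nosip* (1.68), *Pcgf1* (2.26) and *Mast3* (2.55), and for *Nfix* among others *Cxxc5* (1.44) and *Ltbp3* (1.63).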

How the data were processed

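MuSCs of Pax7Cas9 mice gave 2 libraries each for ATAC-seq, H3K4me3, H3K27ac and H3K27me3, and peaks were called by the authors in each library apart. According to the submitters' processing notes and the study's methods, reads were trimmed (Trim Galore 0.6.10), aligned to mm10 (BWA 0.7.17-r1188) and freed of duplicates, alignments with a mapping quality below 30 (SAMtools 1.5) and blacklisted regions (bedtools). ATAC-seq alignments were shifted for the Tn5 cut (deepTools 3.5.5). Peaks came from MACS2 2.2.6.

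The deposited lists give, per peak, a score (the rounded −log10 q or, for H3K27me3, −log10 p, times a constant). They also give the fold at the summit, a ratio to the background that the authors' caller estimated, and the deposited −log10 p and −log10 q values. H3K27me3 peaks were kept by p and the others by q, so the counts of H3K27me3 are not comparable with those of the other features. No list holds read numbers, so the depth and its precision are unknown. Input libraries were not analysed here.

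Peaks on the 21 assembled chromosomes were read with Python 3.11.15 and numpy 2.4.6 (figures: matplotlib 3.10.9), TSSs from GENCODE M21 and sequence from GRCm38.p6, the build of the files. Peaks were shared when they overlapped by 1 bp. The members, the muscle list, the markers and the rules were chosen with earlier results of these data known. Named were the members with every TSS, the 10 genes of the muscle list and protein-coding neighbours with H3K4me3 in both replicates. So were the highest peak per gene, feature and replicate, H3K27me3 peaks of both replicates, the 3 strongest shared H3K27ac peaks away from promoters, and the 3 most alike genes. The overlap code was tested on simulated peaks. Alternatives were other window sizes, stricter q, protein-coding transcripts, a larger overlap, 1 mismatch, and each replicate alone. Protein sequences were not used here. Some genes that these rules name are not reported here.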

Additional observations from a re-analysis of the deposited data

How the results depend on the processing

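No value comes from a test, and 60 of the 74 alternative values stayed within 1.5 times the value reported. The counts of TSSs and of list genes with ATAC-seq, H3K4me3 or H3K27ac did so under every alternative tried. The others were mostly H3K27me3. The count of member TSSs with H3K27me3, 0, was 0 to 1 from 1 replicate alone, the 1 being *Nfic*-207 in replicate 2. The count of muscle list genes with it, 1 (*Ckm*), was 0 with a −log10 q of at least 5, 0 with protein-coding transcripts only, and 2 from either replicate alone. The number of H3K27me3 peaks in the windows, a mean of 8, was 3.5 in the gene bodies alone, 3 at a q of at most 0.05, 0 at a −log10 q of at least 5 (where no share between replicates could be had) and 2 to 14 from 1 replicate alone. In the gene bodies alone the mean number fell from 251.5 to 157 for ATAC-seq and from 73.5 to 41 for H3K4me3. A −log10 q of at least 5 took H3K27ac from 115.5 to 72.5. With 1 mismatch 2 open regions held the NFI palindrome, in place of 1, at a share (0.976%) near that of the whole list (0.874%). No paired analysis was possible because no result comes from a test and the 8 libraries form 1 condition. The depth of the libraries is unknown, and a peak missing from a list does not show that the feature is absent.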
